A study of Danio rerio with 4 samples.

Results

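The muscle parvalbumin genes of the zebrafish, pvalb1 (ENSDARG00000037789), pvalb2 (ENSDARG00000002768), pvalb3 (ENSDARG00000022817) and pvalb4 (ENSDARG00000024433), were chosen by symbol, and all 4 were found once each among the 31953 genes of the count files. Parvalbumins are small calcium-binding proteins of the EF-hand family, related to troponin C and calmodulin. In fast muscle fibres they take up the calcium that is released to start a contraction and hold it until the pumps of the sarcoplasmic reticulum return it to the store, which speeds relaxation. Fish white muscle is known for large amounts of them.

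The counts came from whole Danio rerio embryos collected 24 h after fertilisation. There were 4 libraries, 1 in each group: RNA-seq of wild-type embryos, RNA-seq of ddx39a mutant embryos, RNA immunoprecipitation sequencing (RIP-seq) with the genotype label wild type, and RIP-seq with the label ddx39a mutant. For both RIP-seq libraries the labels' protocols describe ddx39a-Flag mRNA microinjected into early ddx39a mutant embryos and RNA recovered with anti-Flag beads, so each is named here by its label and neither is taken as a control pulldown. The sources used here give neither the allele of the mutant nor the number of embryos per library. DDX39A is a DEAD-box RNA helicase of pre-mRNA processing and mRNA export, and the stated aims were to find how the transcriptome of the mutants changed and which RNAs DDX39A binds. Groups had no replicates, so each ratio compares single libraries and its interval says nothing of the spread between embryos.

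Gene counts came to 9922182 in wild-type and 9533101 in mutant RNA-seq, and in RIP-seq to 1966053 (wild-type label) and 2246938 (mutant label). The 5 most abundant features took 75.5% and 69.5% of the RIP-seq gene counts, against 4.15% and 4.08% in RNA-seq, so a count CPM is not on the same footing in both assays. Of 2 genes with the symbol DDX39A, ENSDARG00000015111 had 3742 counts in wild-type and 706 in mutant RNA-seq, with 318 and 199 in RIP-seq, and ENSDARG00000006225 had 2242 and 2382, with 191 and 153. Which of them carries the mutation is not given. Of 37 marker genes of 8 embryonic cell types 34 were detected in each RNA-seq library. Summed erythroid markers went from 832 to 470 CPM and lens markers from 111 to 42.9 CPM between wild-type and mutant RNA-seq, while epidermal markers stood at 16295 and 16543 CPM and neuronal markers at 335 and 346 CPM; their part in the results on parvalbumins was not tested. In these bulk libraries fewer cells of a type and less RNA per cell cannot be told apart.

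All 4 muscle parvalbumins had their highest level in wild-type RNA-seq, a lower level in mutant RNA-seq, and few or no counts in RIP-seq. Levels are CPM, the count of a gene relative to all gene counts of its library, and the 95% intervals are exact and cover counting error only.

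pvalb2 had 5455 counts in wild-type RNA-seq, 2566 in mutant RNA-seq, 9 in RIP-seq with the wild-type label and 1 in RIP-seq with the mutant label. These are levels of 550 (interval 535 to 565), 269 (259 to 280), 4.58 (2.09 to 8.69) and 0.445 (0.0113 to 2.48) CPM. The RNA-seq levels stood clearly apart, while the intervals of the RIP-seq levels overlapped.

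pvalb1 had 2451, 825, 3 and 0 counts in the same order, or 247 (237 to 257), 86.5 (80.7 to 92.7), 1.53 (0.315 to 4.46) and 0 CPM, where a floor of 3 counts stands for 1.34 CPM and the exact interval of the 0 reaches 1.64. pvalb4 had 411, 110, 3 and 0 counts, or 41.4 (37.5 to 45.6), 11.5 (9.48 to 13.9), 1.53 (0.315 to 4.46) and 0 CPM with the same floor and limit. For both genes the wild-type RNA-seq library was highest, mutant RNA-seq was next without overlap of the intervals, and the RIP-seq libraries could not be ordered.

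pvalb3 was counted least often, with 78 counts in wild-type RNA-seq, 30 in mutant RNA-seq and none in either RIP-seq library. Its RNA-seq levels were 7.86 (6.21 to 9.81) and 3.15 (2.12 to 4.49) CPM. The floor of 3 counts stands for 1.53 and 1.34 CPM in these libraries and the exact intervals of the zeros reach 1.88 and 1.64 CPM, so RIP-seq was too shallow to show whether pvalb3 was present at a low level. Transcript lengths were not used here, so the levels of different parvalbumin genes are not ranked against each other.

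**Figure D1:**
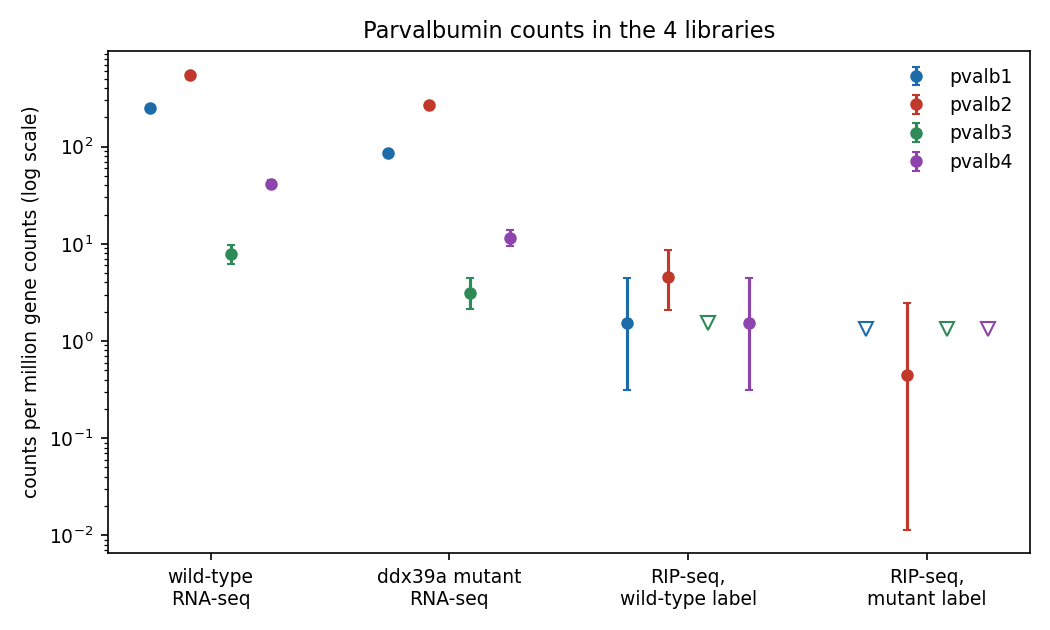
CPM (log scale) of pvalb1 to pvalb4 in each of the 4 libraries. Points are single libraries with exact 95% counting intervals, and open triangles stand at the floor of 3 counts where the count was 0; every member is highest in wild-type RNA-seq and at or below 4.58 CPM in RIP-seq.

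The first comparison asked how these transcripts differed between mutant and wild-type embryos. All 4 genes were lower in the mutant library, by between 2.13-fold and 3.74-fold. Ratios used counts scaled by TMM factors of the pair. A call needed a 2-fold difference or more and a 95% interval without equality. Each of the 4 members was called lower, and over all 18800 genes compared 2.6% were called lower and 2.16% higher.

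pvalb4 was 3.74-fold lower (interval 3.03 to 4.66) and pvalb1 2.98-fold lower (2.75 to 3.22). pvalb3 was 2.60-fold lower, with a wide interval of 1.69 to 4.11 that comes with its small counts. pvalb2 was 2.13-fold lower (2.03 to 2.23), and 2.04-fold (1.95 to 2.14) when scaled to total gene counts, the smallest of its values over 5 scalings. It is the member nearest to the 2-fold size.

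The place of each ratio among all genes compared shows how far from the bulk the members lay. Only 119 of the 18800 genes had a lower log2 ratio than pvalb4, 219 lay below pvalb1, 298 below pvalb3 and 520 below pvalb2, where the median gene was at -0.00. Added together, the members had 8395 counts in wild-type and 3531 in mutant RNA-seq, 846 and 370 CPM, a sum 2.38-fold lower (2.29 to 2.48).

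**Figure D2:**
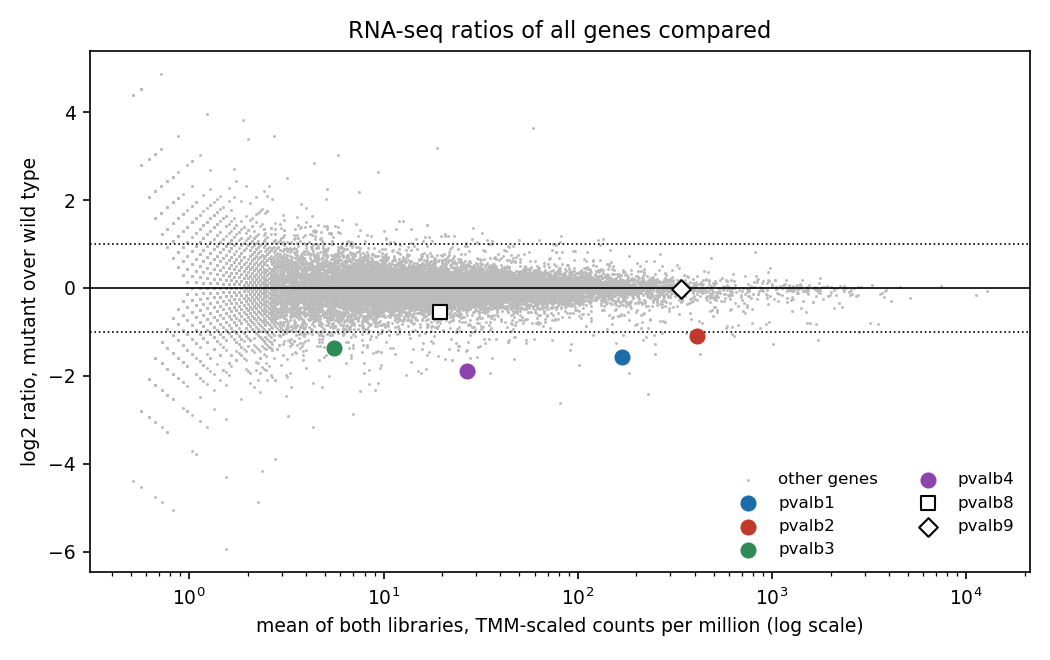
Each grey point is a gene compared in RNA-seq, at its mean TMM-scaled CPM (log scale) and its log2 ratio of ddx39a mutant over wild type; dotted lines mark a 2-fold difference. The 4 coloured points, pvalb1 to pvalb4, all lie below the lower line, while pvalb8 and pvalb9 (open symbols) lie above it.

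The members were not lower by the same factor. The ratio of the ratios of a pair of genes does not depend on how the libraries are scaled, and of the 6 pairs 3 had an interval that excluded equality. The pvalb4 ratio lay below that of pvalb2 by 1.76-fold (1.41 to 2.201), and the pvalb1 ratio below that of pvalb2 by 1.40-fold (1.27 to 1.53). pvalb4 also lay below pvalb1, by 1.26-fold, with an interval of 1.00 to 1.59 that reaches almost to equality. None of the 3 pairs with pvalb3 could be separated at its depth.

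The make-up of the parvalbumin counts differed between the RNA-seq libraries. pvalb2 held 65.0% of the summed counts of the 4 genes in wild-type RNA-seq (exact binomial interval 63.9 to 66.0%) and 72.7% in mutant RNA-seq (71.2 to 74.1%). The share of pvalb1 was 29.2% (28.2 to 30.2%) and 23.4% (21.98 to 24.8%), and that of pvalb4 4.90% (4.44 to 5.38%) and 3.12% (2.57 to 3.74%). pvalb3 made up 0.929% (0.735 to 1.16%) and 0.850% (0.574 to 1.21%), shares that overlapped. Records aligned to more than 1 place were set aside in a summary row and not counted, so reads from stretches that related genes share would be missing from these shares and from the sum.

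Of the 5 other genes with a parvalbumin symbol, 3 had enough counts to be compared and none of these was called. Over all genes compared 2.6% were called lower and 2.16% higher, so no call among 3 genes is near the background. pvalb9 (ENSDARG00000071601) and pvalb8 (ENSDARG00000037790) carry oncomodulin synonyms in the RefSeq gene table. In mammals oncomodulin is the parvalbumin of the outer hair cells of the cochlea. pvalb9 had 3341 counts in wild-type and 3267 in mutant RNA-seq, a ratio of 0.976 (0.930 to 1.02).

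pvalb8 had 227 and 155 counts and stood 1.47-fold lower (1.19 to 1.81), which is short of the 2-fold size. pvalb7, a parvalbumin known from Purkinje neurons of the zebrafish cerebellum, had 12 and 19 counts and a ratio of 1.58 (0.729 to 3.57). pvalb5 had 4 and 2 counts and the gene with the bare symbol PVALB (ENSDARG00000009311) 9 and 5, both under the minimum of 1 CPM.

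The difference between the muscle parvalbumins and pvalb9 was outside counting error for every member. Relative to pvalb9, which was taken as a yardstick after its values were seen, pvalb4 was 3.65-fold lower in the mutant library (2.94 to 4.58), pvalb1 2.90-fold (2.65 to 3.19), pvalb3 2.54-fold (1.64 to 4.02) and pvalb2 2.08-fold (1.94 to 2.22). Relative to pvalb8 the members were lower by 2.55-fold (1.88 to 3.46), 2.03-fold (1.62 to 2.54), 1.77-fold (1.09 to 2.94) and 1.45-fold (1.17 to 1.80) in the same order.

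These genes are close neighbours in the genome. In the RefSeq gene table of the assembly GRCz12tu, which is not the build of the counts and is used here for gene order alone, pvalb9, pvalb3 and pvalb2 follow one another, and so do pvalb8, pvalb4, pvalb1 and pvalb5. No protein-coding gene lies between the members of either run. Each run therefore held genes that were called lower in the mutant library beside one that was compared and not called. These were pvalb9 in the first and pvalb8 in the second, although pvalb8 was itself 1.47-fold lower (1.19 to 1.81). pvalb5, also in the second run, had too few counts to be compared.

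Over the whole family, pvalb1 to pvalb4 made up 70.0% of 11988 parvalbumin counts in wild-type RNA-seq (69.2 to 70.8%) and 50.6% of 6979 in mutant RNA-seq (49.4 to 51.8%). The share of pvalb9 was 27.9% (27.1 to 28.7%) and 46.8% (45.6 to 48.0%).

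**Figure D3:**
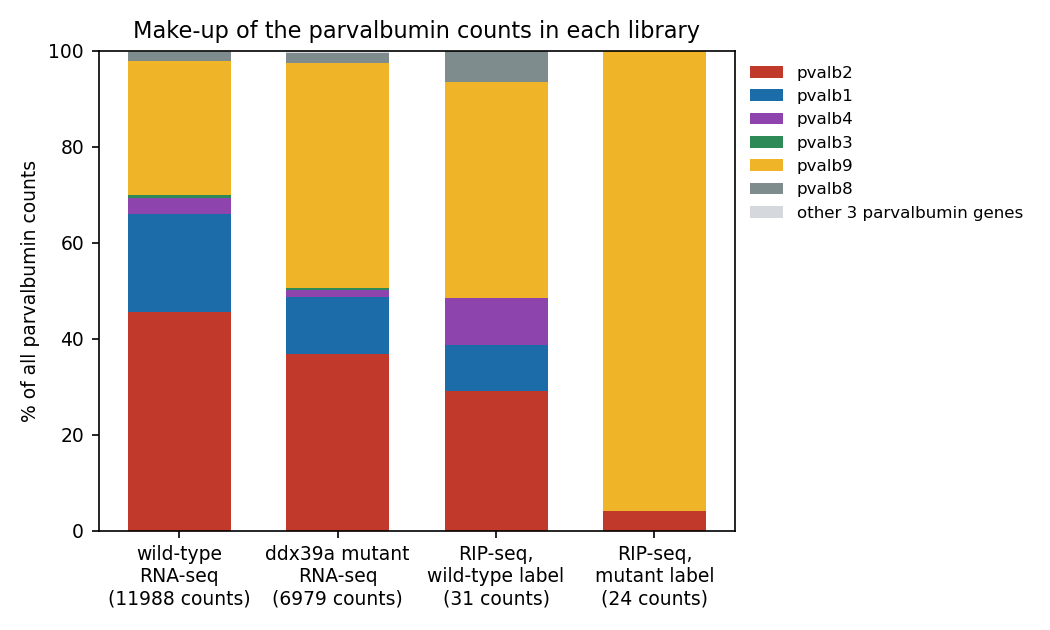
Share of all counts of the 9 genes with a parvalbumin symbol (in %, not corrected for transcript length) in each library, with the number of counts under each bar. The 4 muscle genes hold 70.0% in wild-type and 50.6% in mutant RNA-seq, and in RIP-seq with the mutant label pvalb9 holds 23 of 24 counts.

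Marker genes of fast muscle also had lower counts in the mutant library. Of the 9 fast muscle marker symbols, 6 genes were matched and all were detected in every library. They were the muscle creatine kinases ckma and ckmb, both TNNT3 genes for fast troponin T, the actin gene actc1b and the calcium pump gene atp2a1. Their summed level was 12230 CPM in wild-type and 7116 in mutant RNA-seq. Slow muscle markers stood at 1459 and 1443 CPM, with 6 of 7 genes detected. Most of these counts were of smyhc1 (11843 and 11300). Single genes of the set differed in both directions, such as tnnt2d, 3.75-fold lower, and myh7bb, 2.07-fold higher.

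actc1b had 43589 and 24683 counts, 1.77-fold lower (1.74 to 1.80), atp2a1 39246 and 22539, 1.74-fold lower (1.72 to 1.77), and ckma 11054 and 5849, 1.89-fold lower (1.83 to 1.95). Both TNNT3 genes passed the 2-fold size, ENSDARG00000030270 at 2.05-fold (1.95 to 2.15) and ENSDARG00000068457 at 2.42-fold (2.27 to 2.57). So 2 of the 6 were called lower, where 2.6% of all genes were. ckmb was 1.75-fold lower (1.71 to 1.79).

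Set against the summed counts of these 6 genes, a comparison added after the values were seen, the parvalbumin sum was a further 1.33-fold lower (1.28 to 1.38). Among the members this further factor was 2.09 for pvalb4 (1.69 to 2.60), 1.66 for pvalb1 (1.53 to 1.80) and 1.19 for pvalb2 (1.13 to 1.25), and 1.45 for pvalb3 with an interval (0.943 to 2.29) that includes equality. Against single genes, the parvalbumin sum was lower than 5 of the 6 outside counting error. It could not be separated from TNNT3 ENSDARG00000068457, with a ratio of ratios of 1.02 (0.943 to 1.09). The members differed here. pvalb2 lay above this TNNT3 gene, at 1.14 (1.05 to 1.23), and could not be separated from TNNT3 ENSDARG00000030270, at 0.961 (0.897 to 1.03). pvalb1 and pvalb4 lay below each of the 6 genes, and pvalb3 could not be separated from any of them.

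**Figure D4:**
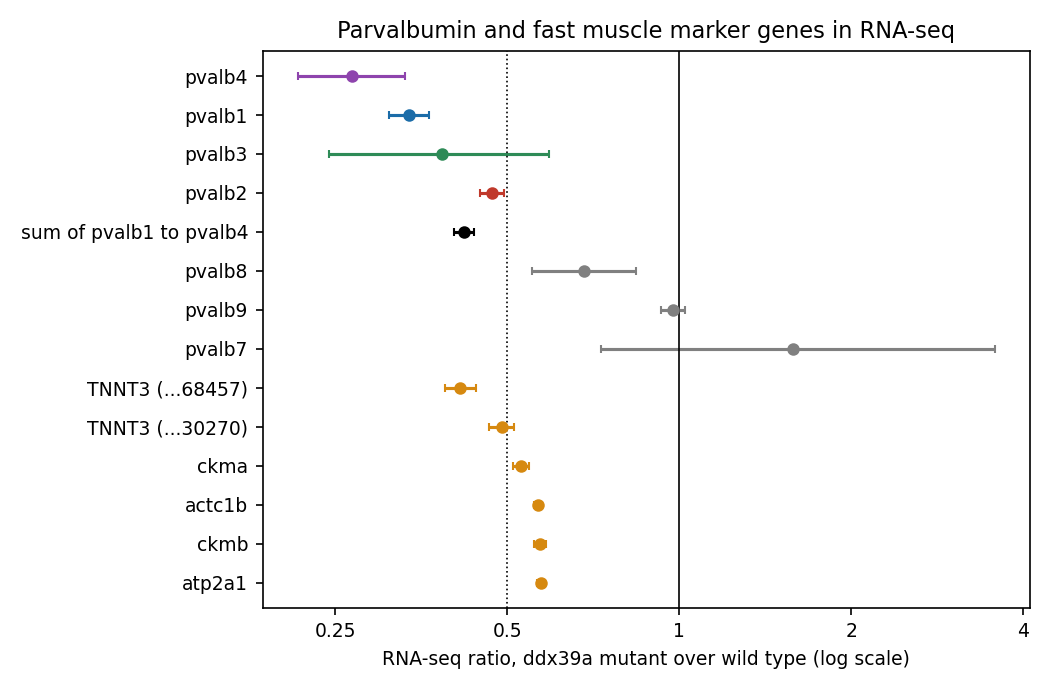
RNA-seq ratio of ddx39a mutant over wild type (log scale) with exact 95% counting intervals for the 4 members, their sum, 3 other parvalbumin genes and the 6 fast muscle marker genes; the solid line marks equality and the dotted line a 2-fold lower value. pvalb4 and pvalb1 lie to the left of every marker gene, pvalb9 lies at equality.

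The proteins that parvalbumin works beside in the calcium cycle gave a mixed picture. Of 34 genes for calcium release and reuptake that were compared, 6 were called lower and none higher. Over all genes 2.6% were called lower and 2.16% higher. The median log2 ratio of the list was -0.44. The 6 called genes included a CASQ1 gene (ENSDARG00000038716), which encodes the calsequestrin that stores calcium in the sarcoplasmic reticulum, and the pump gene atp2a1l. The others were a RYR1 gene for the release channel, a CACNA1S gene for the voltage sensor, and its gamma subunit genes CACNG1 and cacng6b. The CASQ1 gene had 452 and 119 counts, 3.80-fold lower (3.10 to 4.70), and atp2a1l 27 and 3, 9.01-fold lower (2.77 to 46.4).

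Those were the only genes of this list with a lower ratio than pvalb4, and all 6 called genes had a lower ratio than pvalb2. Of the genes not called, the most abundant was the pump gene atp2a1, at 39246 and 22539 counts and 1.74-fold lower (1.72 to 1.77). Next came SRL, which encodes the calcium-binding sarcalumenin, at 3548 and 2915 counts and 1.22-fold lower (1.16 to 1.28). It was followed by asph at 3245 and 3558 counts, with a ratio of 1.09 (1.04 to 1.15).

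Among 31 other EF-hand calcium binders none was called lower, where 2.6% of all genes were, and 1 was called higher, where 2.16% were, so the counts of calls are near the background. The called gene was a CALN1 gene (ENSDARG00000088898) with 4 and 13 counts (3.25-fold, 1.00 to 13.7), and the median log2 ratio was -0.12. The fast troponin C gene TNNC2, whose product is the calcium switch of the thin filament, had 11896 and 6958 counts and was 1.71-fold lower (1.66 to 1.76). The calmodulin genes calm3b and CALM2 had ratios of 0.985 (0.954 to 1.02) and 0.887 (0.855 to 0.920). All 31 lay above each of the 4 parvalbumins.

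Among fast contractile protein genes 7 of 23 were called lower, where 2.6% of all genes were. With total-count scaling it was 5 of 23, where 2.25% of all genes were. The list symbols mylpfa, mylpfb, mylz3 and those starting with tnni2 had no match, and the TNNI2 gene named below is not among the 23. The list had 1 gene called higher, where 2.16% of all genes were, myhb with 8 and 39 counts (4.87-fold, 2.24 to 12.1). The median log2 ratio of the list was -0.82. Only myha, with 41 and 10 counts (4.11-fold lower, 2.02 to 9.19), had a lower ratio than pvalb1, pvalb3 and pvalb4, and 5 of the 23 lay below pvalb2. The abundant fast myosin genes myhz1.3 (36490 and 18174 counts) and myhz1.1 (20901 and 11838) were 2.01-fold (1.98 to 2.05) and 1.77-fold lower (1.73 to 1.81).

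In muscle energy metabolism 3 of 26 genes were called lower and none higher, where 2.6% of all genes were called lower and 2.16% higher. The called genes included both PFKM genes for muscle phosphofructokinase, at 3.85-fold (2.59 to 5.87, ENSDARG00000014179) and 2.87-fold (2.23 to 3.73, ENSDARG00000060797). The list median was -0.48. GAPDH, a glycolytic enzyme, stood 1.204-fold lower (1.16 to 1.25).

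Slow contractile protein genes had 1 of 13 lower and 1 higher, where 2.6% of all genes were called lower and 2.16% higher. The list median was -0.25. The slow myosin gene smyhc1 had 11843 and 11300 counts, 1.05-fold lower (1.02 to 1.08), tpm3 stood 1.19-fold lower (1.15 to 1.24) and the troponin T gene tnnt2c 1.73-fold (1.65 to 1.81). The called genes were tnnt2d (3.75-fold lower, 2.82 to 5.04) and myh7bb (2.07-fold higher, 1.86 to 2.31).

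Of 18 regulators of myogenesis compared none was called in either direction, where 2.6% of all genes were called lower and 2.16% higher. The list median was 0.13. With total-count scaling, where 2.51% of all genes were called higher, 2 of the list were, MYMK and mymx. These genes for the membrane proteins of myoblast fusion were close to the 2-fold size in the other direction from the parvalbumins, MYMK with 289 and 560 counts and a ratio of 1.93 (1.68 to 2.24) and mymx with 307 and 594 counts and a ratio of 1.93 (1.68 to 2.22). The myogenic transcription factor genes MYOG and MYOD1 had ratios of 1.66 (1.43 to 1.92) and 1.55 (1.34 to 1.80). These 4 genes were named after their values were seen. The most abundant of the list, MEF2C, MEF2D and PAX3, also transcription factors of the muscle lineage, had ratios of 0.860 (0.806 to 0.918, ENSDARG00000029764), 1.103 (1.02 to 1.19) and 1.09 (0.9498 to 1.25, ENSDARG00000010192).

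**Figure D5:**
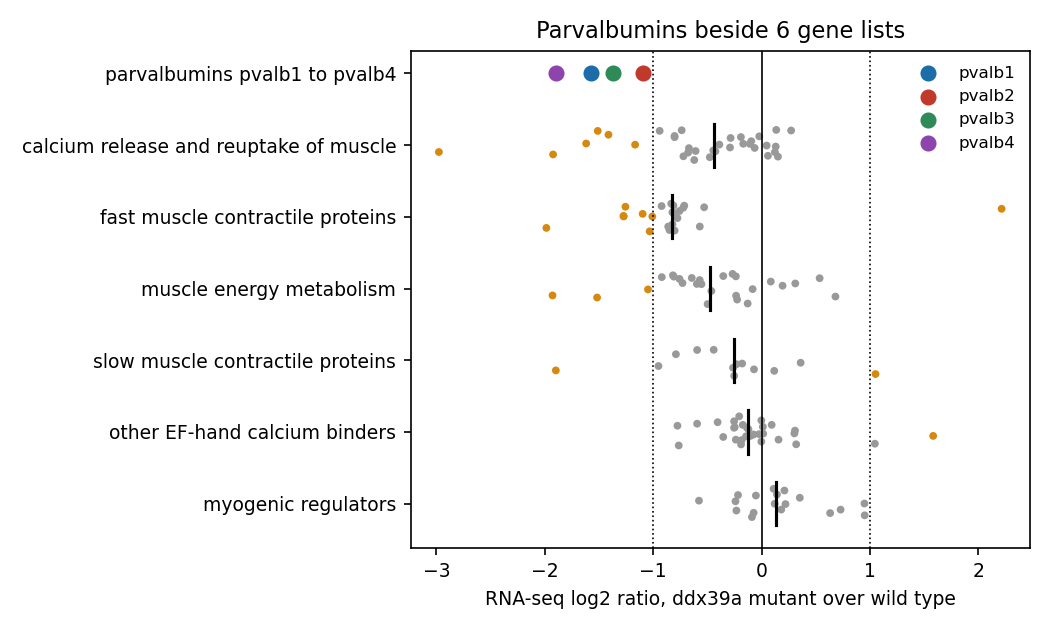
RNA-seq log2 ratios (mutant over wild type, prior count 0.5) of the 4 parvalbumins and of the genes of 6 lists; orange points were called, grey points were not, black bars are list medians and dotted lines mark 2-fold. The parvalbumins all lie beyond the 2-fold line, and list medians run from -0.82 for fast contractile proteins to 0.13 for myogenic regulators.

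The RIP-seq comparisons asked which RNAs were recovered with tagged DDX39A. Parvalbumin RNAs were scarce in both pulldown libraries. Each RIP-seq library was set against the RNA-seq library of the same label. Because the protocols describe mutant embryos for both, with the wild-type label a difference of assay and one of genotype cannot be told apart. With either label, the injected ddx39a-Flag mRNA described for RIP-seq cannot be told apart from the assay. With the wild-type label the 4 genes reached 15 counts in all, where equal scaled levels in RIP-seq and RNA-seq would give 467 counts after TMM scaling and 1663 in proportion to total counts. With the mutant label they had 1 count, where 240 and 832 would be given.

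With the wild-type label the parvalbumin sum was 31.1-fold lower in RIP-seq than RNA-seq (18.9 to 55.7), pvalb1 45.5-fold (15.5 to 221), pvalb2 33.7-fold (17.8 to 73.8) and pvalb4 7.62-fold (2.59 to 37.1). pvalb3, at 0 against 78 counts, was 1.45-fold lower with the floor of 3 counts in place of the 0, and its exact interval starts at 1.15-fold. All 4 were called lower, where 14.1% of 17412 genes were (9.01% were higher), although pvalb3 met the size rule only because its count was 0. In a ranking of log2 ratios only 15 genes lay below pvalb1 and 20 below pvalb2.

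With the mutant label the sum was 240-fold lower (43.0 to 9481), on a single count of pvalb2, whose own ratio was 174-fold lower (31.3 to 6891). pvalb1 had 0 against 825 counts and was 18.7-fold lower with the same floor in place of the 0, with an exact interval that starts at 15.2-fold. pvalb4, at 0 against 110, was 2.49-fold lower with the floor in place of the 0, with an exact interval that starts at 1.99-fold. pvalb3, at 0 against 30, could not be assessed. Thus 3 of 4 were called lower, where 16.2% of 17711 genes were (13.8% were higher), and 3 genes had a lower log2 ratio than pvalb2.

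These folds depend on the scaling, because a few features fill the RIP-seq libraries. With total gene counts every fold of this kind would be larger, by 3.56 times for the wild-type label and 3.47 times for the mutant label. The balance of all genes then moved from 2450 lower and 1568 higher to 13429 lower and 310 higher with the wild-type label, and from 2875 and 2441 to 12946 and 500 with the mutant label. With the wild-type label it was 1934 lower and 2002 higher by upper-quartile factors and 1859 and 2111 with the 5 most abundant features left out. With the mutant label these settings gave 2399 lower and 2828 higher, and 3242 and 2194.

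The sum of the 6 fast muscle marker genes kept more of its RNA-seq counts in RIP-seq than the parvalbumins did, a comparison within the same libraries that needs no scaling. Relative to the 6 fast muscle marker genes, which had 2603 and 1510 RIP-seq counts, the parvalbumin sum was 12.0-fold lower in RIP-seq over RNA-seq with the wild-type label (7.26 to 21.5) and 78.6-fold with the mutant label (14.1 to 3107). With the wild-type label pvalb1 was 17.5-fold lower than these genes (5.98 to 85.1) and pvalb2 13.0-fold (6.83 to 28.5), while pvalb4 (2.94-fold, 0.997 to 14.3) could not be separated from them.

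Single fast muscle genes differed in this respect. actc1b was 2.39-fold lower in the RIP-seq library (2.25 to 2.55) with the wild-type label, but TNNT3 ENSDARG00000068457, with 4 RIP-seq against 3436 RNA-seq counts, was 47.8-fold lower (18.7 to 176). pvalb1 could not be separated from it, with a ratio of ratios of 1.05 (0.154 to 6.22). Nor could pvalb2, at 1.42 (0.395 to 6.30), pvalb4, at 6.26 (0.914 to 37.2), or the parvalbumin sum, at 1.53 (0.488 to 6.36). With the mutant label the sum, at 0.202 (0.00341 to 3.87), could not be separated from this TNNT3 gene either. pvalb9 was also low, at 14 against 3341 counts with the wild-type label (13.3-fold lower, 7.90 to 24.3) and 23 against 3267 with the mutant label (9.65-fold, 6.42 to 15.3). The parvalbumin sum lay below pvalb9 by 2.35-fold for the wild-type label (1.05 to 5.22) and by 24.9-fold with the mutant label (4.03 to 1024).

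Between the RIP-seq libraries, the parvalbumin sum went from 15 counts (wild-type label) to 1 (mutant label), 18.4-fold lower (2.83 to 774). Of the single members, pvalb2 alone was called, at 9 against 1 counts (11.0-fold lower, 1.53 to 483). pvalb1 and pvalb4, each with 3 against 0 counts, were not called. From 3 counts no lower call was possible, since even at 0 the exact interval reaches a ratio of 1.97. pvalb3 had no counts in either. Thus 1 of 3 members compared was called, on few reads, where 5.3% of 15762 genes were called lower and 8.37% higher. The balance of all genes was 835 lower and 1319 higher, and 1333 and 1004 when the 5 most abundant features of each library were left out of the totals.

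pvalb9 had 14 and 23 counts in the RIP-seq pair, a ratio of 1.34 (0.661 to 2.82). The share of pvalb1 to pvalb4 in all parvalbumin counts was 48.4% of 31 with the wild-type label (30.2 to 66.9%) and 4.17% of 24 with the mutant label (0.105 to 21.1%), and these intervals did not overlap. Relative to pvalb9 the muscle parvalbumin sum was 23.3-fold lower with the mutant label (2.98 to 1081), while in RNA-seq the same measure was 2.32-fold (2.18 to 2.48). The size of the RIP-seq difference is thus poorly fixed, and no ratio of the difference between assays was computed for a member because every one had under 5 counts in a RIP-seq library.

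In RIP-seq the fast muscle marker genes were also lower with the mutant label, at 1324 against 672 CPM in all. ckma had 350 and 121 counts (3.54-fold lower, 2.87 to 4.396), ckmb 311 and 137 (2.78-fold, 2.27 to 3.43), and atp2a1 858 and 669 (1.57-fold, 1.42 to 1.74). Of 22 energy metabolism genes 10 were called lower and 1 higher, and of 23 fast contractile genes 8 were lower and none higher. Of 29 calcium release and reuptake genes 1 was lower and 4 were higher. Over all genes compared 5.3% were called lower and 8.37% higher. With total counts 7 fast contractile and 8 energy metabolism genes were lower, where 4.41% of all genes were. With the 5 most abundant features left out of the totals 13 fast contractile genes were lower. Of 30 calcium genes 5 were then lower and 4 higher, where 7.12% of all genes were lower and 5.36% higher. The parvalbumin sum, with 1 count for the mutant label, lay a further 8.70-fold below the sum of the 6 marker genes (1.34 to 367). Against single marker genes, it lay below actc1b (8.28-fold, 1.27 to 349) and atp2a1 (11.7-fold, 1.79 to 493). It could not be separated from ckma (5.17-fold, 0.780 to 220) or ckmb (6.59-fold, 0.995 to 280). Nor could it be separated from TNNT3 ENSDARG00000030270 (4.72-fold, 0.648 to 210) or TNNT3 ENSDARG00000068457 (6.66-fold, 0.282 to 471).

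Over the 4 libraries, the gene whose profile was most like the parvalbumin sum was TNNI2 (ENSDARG00000029069), a fast troponin I gene. It was first of 1973 genes with a symbol and at least 50 TMM-scaled CPM in either RNA-seq library. The TMM factors here were those of the 4 libraries together, so this minimum is stricter than 50 CPM of gene counts. Likeness was the root mean square difference of centred log2 values over the 4 libraries, which was 0.51 for TNNI2. It had 3548 and 1753 counts in RNA-seq, 2.03-fold lower in the mutant library (1.91 to 2.15), and 13 and 0 counts in RIP-seq. The next of these 1973 genes were MT1X, a metallothionein gene, at 0.89, TNNT3 ENSDARG00000068457 at 0.97, icn2 at 1.04 and aep1 at 1.05.

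MT1X had 1507 and 1614 counts in RNA-seq and 5 and 1 in RIP-seq, so its likeness rested on the RIP-seq libraries and not on the RNA-seq pair, where its ratio was 1.07 (0.996 to 1.15). Likeness itself does not depend on the scaling, and for TNNI2 it was 0.51 with total counts too. Total counts changed only which genes reached the CPM minimum, which 3752 then did. Among these, 1 of the 5 genes above, TNNI2, was again among the 5 most like. The rest of those 5 were AQP3 at 0.75, RHAG at 0.76, CRYBB1 at 0.87 and PTS at 0.87. AQP3, RHAG and CRYBB1 each had 2 and 0 counts in RIP-seq and PTS 1 and 0, under the floor of 3 counts. In RNA-seq CRYBB1 was 2.17-fold lower (1.89 to 2.51), PTS 1.34-fold, AQP3 1.19-fold and RHAG 1.16-fold.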

How the data were processed

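Each of the 4 libraries came as a deposited list of whole-number read counts for 31953 Ensembl genes. The HTSeq summary rows stayed out of all totals. Per the submitters' processing notes, the authors used bcl2fastq, FastQC 0.11.5, TopHat2 2.2.1, Bowtie2 2.2.3, HTSeq 0.6.1p1 and the build GRCz10. Neither strand setting nor annotation release is stated in the sources at hand, so reads of antisense and overlapping genes cannot be told apart. Multiply aligned records were 11.2% and 8.42% of all in RNA-seq and 91.8% and 89.5% in RIP-seq (wild type, then mutant), and 53.8%, 54.0%, 82.1% and 79.2% of the unique ones hit no gene.

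Symbols came from a table that pairs them with Ensembl IDs (26121 IDs matched), often in human style. List symbols were matched without regard to case, then without a final a or b. Some symbols had no match.

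TMM factors of a pair (edgeR 4.0.16 in R 4.3.3) set its scale, and a gene was compared if it reached 1 CPM in one of the libraries. Ratios carry 95% exact conditional binomial (Clopper-Pearson) intervals, ratios of ratios exact conditional odds ratio intervals, and levels exact Poisson intervals. Since PCR copies are counted too, intervals and floors (3 counts per library) cover counting error only. With 1 library per group, no p-value is given. Code was tested on simulated counts. Genes named are the members, other parvalbumin genes and the 5 most like genes under each CPM minimum. From each list they are the 3 most abundant genes, the 2 lowest and the 1 highest called gene (not all are printed). The fast muscle markers and the other called calcium genes were named after their values were seen. Members and lists were chosen with earlier results of these data known. DESeq2 1.42.0 gave alternative size factors; other steps ran in Python 3.11.15 with scipy 1.17.1, numpy 2.4.6 and pandas 2.3.3.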

Additional observations from a re-analysis of the deposited data

How the results depend on the processing

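All 4 parvalbumins were called lower in mutant RNA-seq under each of 4 other scalings (DESeq2, upper quartile, total counts, totals without the 5 most abundant features), without a filter and with a minimum of 5 CPM. Over all genes between 2.25% (total counts) and 2.58% (DESeq2) were called lower under these 4 scalings. For the other filters and rules no such share is given. With the whole interval beyond 2-fold 3 parvalbumins were called lower, and pvalb3 was not. With a 4-fold size 0 were called, and the summed ratio of 0.420 did not pass. Between the RIP-seq libraries the count of 1 called parvalbumin became 0 with a CPM of at least 5 and 0 with the whole interval beyond 2-fold. Calls over all genes in RNA-seq, both directions together, moved from 894 of 18800 genes. They were 308 with a CPM of at least 5, where fewer genes were compared, 213 with a 4-fold size and 153 with the whole interval. Between RIP-seq libraries they moved from 2154 to 931 and 514 with the last 2 rules. For RIP-seq over RNA-seq they moved from 4018 to 13739 (total counts), 1981 (4-fold) and 1314 (whole interval) with the wild-type label, and from 5316 to 13446, 2569 and 2235 with the mutant label. A stricter rule calls fewer genes by construction, and total counts shift every RIP-seq over RNA-seq ratio. The sums without pvalb2 gave no ratio with the mutant label, since no RIP-seq count was left. Shares per length were not run, because transcript lengths were not used here. Replicates could not be left out. No paired analysis was possible because each group had 1 library. RIP-seq depth, with 15 and 1 parvalbumin counts, limits every statement on those libraries.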
